A study of Rattus norvegicus with 42 samples.

Results

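Genes of 6 chemokine ligands and of an inducible prostaglandin enzyme were followed through kidney precursor tissue as it was induced in culture. The members were Cxcl1, Cxcl2, Ccl2, Ccl7, Cxcl12, Cx3cl1 and Ptgs2, taken by gene symbol, and they made up 7 of the 14218 genes that the arrays could name. Each was read from its probe set with the highest mean over all arrays. That was the only named probe set for 6 members, whereas Cxcl12 had 3. All 7 were among the 11388 genes tested, which were those whose highest group mean lay above a signal threshold of log2 5.79 (an intensity of 55.2, the 40th percentile of all values).

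The tissue was metanephric mesenchyme of rat embryos at embryonic day 13.5, the mesenchyme that forms nephron epithelia, freed from the ureteric bud with trypsin, DNase and needles. There were 42 Affymetrix arrays in 21 groups of 2 biological replicates. One group was fresh tissue, and 2 groups were control cultures without inducer, taken on day 1 and day 2. The other 18 groups were cultures with LIF (leukemia inhibitory factor), NGAL (the lipocalin encoded by Lcn2) or the ANX fraction, each taken on days 1, 2, 3, 4, 5 and 7. No strain or genotype is labelled, and the labels do not state the makeup of the ANX fraction. Cultures of every kind, controls among them, grew on filters coated with collagen. Their DMEM/F12 medium held T3, a TGF, an FGF, selenium, transferrin and insulin, and also dexamethasone and prostaglandin. The medium thus held a glucocorticoid and a prostaglandin in every cultured group and in no fresh sample. Controls were taken on days 1 and 2 alone, so from day 3 on an inducer can be set only against another inducer or against its own earlier days.

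Chemokines are small secreted proteins that draw cells along a gradient by acting on G-protein-coupled receptors. Cxcl1 and Cxcl2 act on Cxcr2 and are known for attracting neutrophils, and Ccl2 and Ccl7 act on Ccr2 and are known for attracting monocytes. Cxcl12 is made steadily by mesenchymal cells, acts on Cxcr4, and is bound and cleared by the scavenger receptor Ackr3. Cx3cl1, or fractalkine, is tethered to the membrane and binds Cx3cr1. Ptgs2 encodes cyclooxygenase 2, the inducible enzyme that turns arachidonic acid into the precursor of the prostanoids. Transcription of Cxcl1, Cxcl2, Ccl2 and Ptgs2 is known from other cells to respond to inflammatory cytokines through factors such as NF-kB, and glucocorticoids are known to hold it down.

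Promoter sequences are shown for Cxcl1 and Ptgs2, the pair of members with the greatest rises under ANX, and for Cxcl2, the chromosomal neighbour of Cxcl1. RefSeq's table for the GRCr8 build held a promoter for 6 of the 7 members, each of 300 bases from 250 before to 50 after the start of the gene. In GRCr8 the Cxcl1 window lies at chr14:17479272-17479571 on the minus strand, the Cxcl2 window at chr14:17467206-17467505 on the minus strand, and the Ptgs2 window at chr13:64713813-64714112 on the plus strand. Capitals mark matches to the NF-kB consensus.
Cxcl1 promoter: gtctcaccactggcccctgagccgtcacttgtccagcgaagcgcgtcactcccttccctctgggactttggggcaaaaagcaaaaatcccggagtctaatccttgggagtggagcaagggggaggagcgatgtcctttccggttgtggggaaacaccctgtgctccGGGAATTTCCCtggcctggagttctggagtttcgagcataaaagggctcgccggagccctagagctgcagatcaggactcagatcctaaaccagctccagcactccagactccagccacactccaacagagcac
Cxcl2 promoter: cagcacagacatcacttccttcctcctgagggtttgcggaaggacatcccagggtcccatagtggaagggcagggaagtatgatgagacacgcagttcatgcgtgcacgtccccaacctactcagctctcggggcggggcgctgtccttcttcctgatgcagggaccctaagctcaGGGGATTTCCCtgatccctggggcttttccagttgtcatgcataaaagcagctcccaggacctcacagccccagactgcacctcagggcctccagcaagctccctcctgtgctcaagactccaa
Ptgs2 promoter: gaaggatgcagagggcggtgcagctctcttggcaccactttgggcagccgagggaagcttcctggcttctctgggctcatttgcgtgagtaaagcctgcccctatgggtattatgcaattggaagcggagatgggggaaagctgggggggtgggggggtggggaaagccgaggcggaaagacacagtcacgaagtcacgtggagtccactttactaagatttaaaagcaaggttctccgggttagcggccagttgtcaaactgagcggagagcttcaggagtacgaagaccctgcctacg
On both strands 5 motifs were searched, and the windows of Cxcl1 and Cxcl2 held overlapping matches to the NF-kB consensus that begin 84 and 74 bases before the start. Of all 33469 promoters in the table, 4.18% held this consensus, and of the 6 members searched these 2 did. The AP-1 motif TGANTCA and the STAT motif TTCNNNGAA were found in the Ccl7 window alone among the members, against 7.33% and 8.87% of all promoters. The letters TATAAA stood in the windows of Ccl7 and Cx3cl1, against 14.2% of all, and the glucocorticoid receptor motif AGAACA stood in none of the 6, against 20.7% of all. The Ptgs2 window held none of the 5 motifs, which says only that these letters are not in these 300 bases. Cxcl1 and Cxcl2 lie on the same chromosome with 0 protein-coding genes between them in RefSeq's gene table, and so do Ccl2 and Ccl7.

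Array medians ran from 83.3 to 88.4 on the linear scale, and the number of arrays, 2 a group, limits the precision. The tissue label was checked against markers. All 9 mesenchyme markers on the arrays were above the signal threshold in fresh tissue, while 3 of 10 ureteric bud markers were, and no probe set was given to Six2 or Cited1 alone. Of 6 neutrophil genes none was above the threshold in 38 of 42 arrays and 1 was in each of the other 4, which were NGAL day 1, ANX day 2, ANX day 3 and LIF day 7, replicate 1 of each, and summed intensities were 148.7 to 206.7. Of 19 macrophage and leukocyte genes 12 were above it in fresh tissue, but Ptprc, Csf1r, Adgre1, Cx3cr1 and Cd163 were not. The log2 3'/5' signal ratio of a spiked-in control RNA, dap, averaged 1.69 in controls and 1.28 under ANX on days 1 and 2, and the 5S ribosomal RNA probe set averaged log2 9.16 and 7.16. In NGAL day 3 and NGAL day 7, replicate 1 stood apart from replicate 2. Its summed macrophage and leukocyte intensity was 2665.4 against 1374 on day 3 and 3266 against 1352.6 on day 7. Its stromal sum was 42726.8 against 33198.8 and 39990.4 against 23455.9, and its mesenchyme sum 3864.9 against 8590.2 and 2912 against 7145.8. Member results that rest on either array are given with and without it, whereas other genes are given with all arrays only.

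Levels below are log2 of the deposited intensity, with replicate 1 before replicate 2. A probe set's level says nothing of its abundance against another gene's, so levels are compared within a gene. In pieces of whole tissue, fewer cells of a type and less RNA per cell cannot be told apart. The most variable member was Ptgs2, whose highest and lowest group means lay 7.87 apart on the log2 scale, followed by Ccl2 at 5.48 and Cxcl1 at 5.47. Cxcl12 spanned 4.04, Cxcl2 3.66, Ccl7 2.25 and Cx3cl1 1.501. The lowest means of Ptgs2, Ccl2, Cxcl1, Cxcl2 and Ccl7 lay below the signal threshold, so their spans also depend on readings near background.

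**Figure D1:**
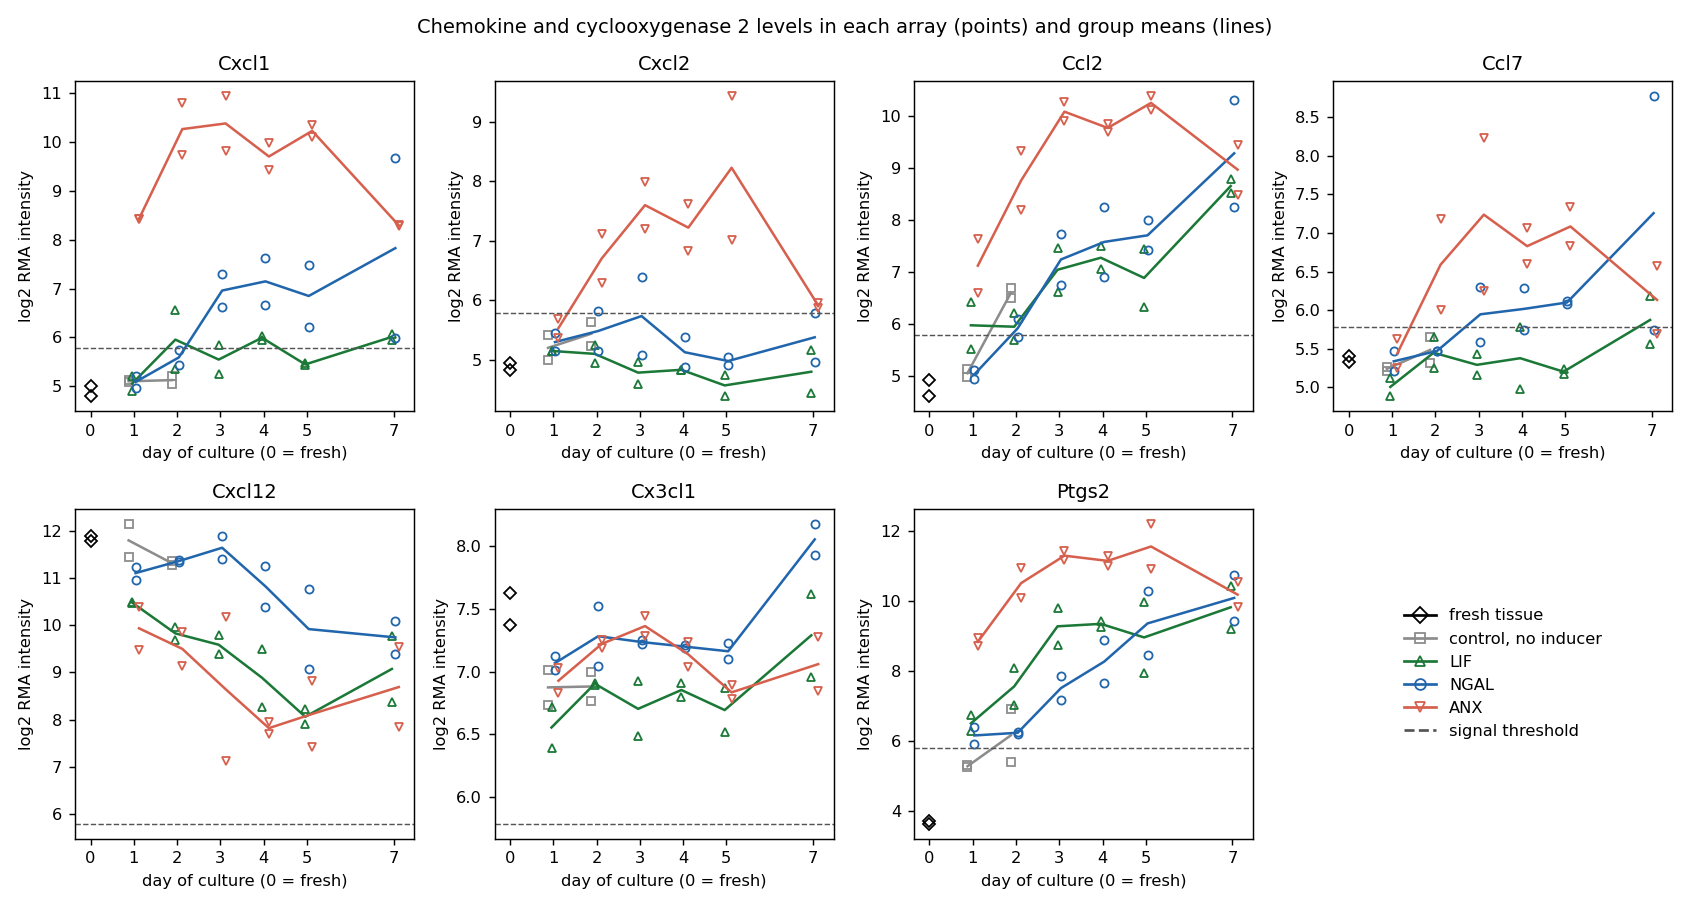
Log2 RMA intensity of each member (y axis) by day of culture (x axis, day 0 is fresh tissue). Points are single arrays, lines join group means, and the dashed line is the signal threshold of log2 5.79. The ANX arrays of Cxcl1 lie at 8.28 or above on every day while fresh and control arrays lie at 5.21 or below, and Cxcl12 runs the other way from 11.91 in fresh tissue to 7.12 in an ANX array of day 3.

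Cxcl1, the neutrophil-attracting ligand, was at or near background in tissue without inducer. It read 4.80 and 5.01 in fresh tissue, 5.09 and 5.12 in day 1 controls, and 5.04 and 5.21 in day 2 controls. Under LIF it read 5.22 and 4.90 on day 1, 6.57 and 5.35 on day 2, 5.85 and 5.24 on day 3, 5.95 and 6.04 on day 4, 5.43 and 5.47 on day 5, and 5.94 and 6.08 on day 7. LIF group means thus lay between 5.06 and 6.01, close to the threshold throughout. Under NGAL Cxcl1 read 5.21 and 4.97 on day 1, 5.75 and 5.43 on day 2, 7.30 and 6.61 on day 3, 7.62 and 6.67 on day 4, 7.48 and 6.22 on day 5, and 9.67 and 5.99 on day 7. All NGAL arrays from day 3 on were above the threshold, and the day 7 arrays were far apart. Under ANX it read 8.43 and 8.42 on day 1, 9.74 and 10.78 on day 2, 9.82 and 10.94 on day 3, 9.98 and 9.42 on day 4, 10.09 and 10.35 on day 5, and 8.30 and 8.28 on day 7. Both ANX arrays were above every fresh, control and LIF array on all 6 days (share of all genes not counted). In the order of group means, ANX days 3, 2, 5 and 4 (10.38 to 9.70) came first and did not differ beyond the pooled replicate SD of 0.715. A gap of 1.27 separated them from ANX days 1 and 7 and the later NGAL days.

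Cxcl2, the close relative of Cxcl1, was above the threshold by group mean in 5 of 21 groups, all of them under ANX. It read 4.82 and 4.95 in fresh tissue and between 4.99 and 5.64 in the 4 controls. LIF arrays lay between 4.39 and 5.25. NGAL arrays lay between 4.87 and 6.38, the highest being day 3 replicate 1. Under ANX Cxcl2 read 5.37 and 5.69 on day 1, 6.29 and 7.12 on day 2, 7.99 and 7.20 on day 3, 7.61 and 6.83 on day 4, 7.02 and 9.44 on day 5, and 5.96 and 5.87 on day 7. It was thus high in the middle of the ANX course, with a day 5 mean (8.23) that rests largely on replicate 2, and was near the threshold on days 1 and 7.

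Ccl2, the monocyte-attracting ligand, read 4.92 and 4.62 in fresh tissue, 5.13 and 4.99 in day 1 controls, and 6.50 and 6.70 in day 2 controls. Under LIF it read 5.52 and 6.43 on day 1, 6.21 and 5.69 on day 2, 7.47 and 6.62 on day 3, 7.05 and 7.50 on day 4, 6.34 and 7.44 on day 5, and 8.78 and 8.52 on day 7. Under NGAL it read 5.13 and 4.95 on day 1, 6.09 and 5.75 on day 2, 7.73 and 6.75 on day 3, 8.26 and 6.90 on day 4, 7.99 and 7.42 on day 5, and 10.31 and 8.25 on day 7. The LIF and NGAL courses overlapped, and both were highest on day 7. Under ANX Ccl2 read 6.61 and 7.64 on day 1, 8.20 and 9.32 on day 2, 9.90 and 10.26 on day 3, 9.69 and 9.84 on day 4, 10.11 and 10.38 on day 5, and 8.48 and 9.45 on day 7. Both ANX arrays were above both arrays of LIF and of NGAL on 5 of 6 days each (share of all genes not counted). Day 7 was the exception, where the groups met. The means of ANX days 5, 3 and 4 were 10.25, 10.08 and 9.77, and those of NGAL day 7, ANX day 7, ANX day 2 and LIF day 7 followed at 9.28 to 8.65 with no gap beyond the pooled SD of 0.587.

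Ccl7, the neighbour of Ccl2 that shares its receptor, stayed closer to background, with 10 of 21 group means above the threshold. Fresh, control and LIF arrays lay between 4.89 and 6.19. Under NGAL the highest reading was 8.77 in day 7 replicate 1, against 5.74 in replicate 2 of that day, and the other 10 arrays lay between 5.21 and 6.30. Under ANX it read 5.25 and 5.63 on day 1, 6.002 and 7.17 on day 2, 6.25 and 8.22 on day 3, 6.60 and 7.06 on day 4, 7.33 and 6.84 on day 5, and 5.69 and 6.58 on day 7. The ANX arrays of days 2 to 5 were all above the control arrays of days 1 and 2 (share of all genes not counted). However, the day 3 pair were far apart, and no 2 neighbours in the order of group means differed by more than the pooled SD of 0.658.

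Cxcl12, the ligand of Cxcr4, was well above the threshold in all 21 groups and was highest in tissue that had not met LIF or ANX. It read 11.91 and 11.80 in fresh tissue, 11.45 and 12.16 in day 1 controls, and 11.37 and 11.28 in day 2 controls. Under NGAL it read 11.25 and 10.97 on day 1, 11.38 and 11.35 on day 2, 11.89 and 11.41 on day 3, 10.39 and 11.27 on day 4, 9.06 and 10.78 on day 5, and 9.40 and 10.09 on day 7. The NGAL arrays of days 1 to 3 were thus within or close to the range of the controls. Under LIF it read 10.47 and 10.50 on day 1, 9.69 and 9.97 on day 2, 9.39 and 9.79 on day 3, 8.27 and 9.50 on day 4, 8.21 and 7.91 on day 5, and 8.37 and 9.78 on day 7. Under ANX it read 9.48 and 10.40 on day 1, 9.86 and 9.15 on day 2, 7.12 and 10.17 on day 3, 7.70 and 7.94 on day 4, 7.41 and 8.83 on day 5, and 7.85 and 9.54 on day 7. In the probe set used, all LIF and ANX arrays were below all fresh and control arrays (share of all genes not counted). Controls end on day 2, so for the later days inducer and time in culture cannot be told apart here. The replicates within these courses were widely spread (pooled SD 0.763), so that no 2 neighbours in the order of means differed beyond it. In the dimmest probe set of Cxcl12 groups overlapped, with LIF day 1 at 7.28 to 7.73 and control day 2 at 7.24 to 7.61. In the remaining one the NGAL mean was 9.77 on day 1 and 10.20 on day 7, against 11.11 and 9.75 in the probe set used. In 3 of the pairs that lay far apart the array with less Cxcl12, replicate 1, also had the lower sum of renal stroma markers. That sum was 11275.1 against 30597.3 on ANX day 3, 10359.8 against 22342.9 on LIF day 4 and 9803.4 against 18291.9 on LIF day 7. Other pairs, such as NGAL day 5 and ANX day 7, also lay far apart, and their sums are not given here. On NGAL day 7 it went the other way, as replicate 1 had less Cxcl12 and the higher stroma sum given above. The part of the stroma was not tested.

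Cx3cl1, the membrane-bound ligand, varied least and also replicated best (pooled SD 0.202). It read 7.63 and 7.38 in fresh tissue and between 6.73 and 7.02 in the controls. LIF arrays of days 1 to 5 lay between 6.39 and 6.92, and those of day 7 read 6.96 and 7.62. NGAL arrays of days 1 to 5 lay between 7.01 and 7.52, and those of day 7 read 8.18 and 7.93. The NGAL day 7 mean of 8.06 was the highest of the 21 and stood 0.55 above that of fresh tissue, a gap greater than the pooled SD. ANX arrays lay between 6.78 and 7.44.

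Ptgs2, the inducible cyclooxygenase, read 3.63 and 3.72 in fresh tissue, below all of its readings in culture. Day 1 controls read 5.25 and 5.30, and day 2 controls 6.90 and 5.41. Under LIF it read 6.27 and 6.73 on day 1, 8.09 and 7.02 on day 2, 9.80 and 8.74 on day 3, 9.26 and 9.42 on day 4, 7.94 and 9.97 on day 5, and 10.43 and 9.20 on day 7. All LIF arrays from day 2 on were thus above the controls (share of all genes not counted). Under NGAL it read 6.39 and 5.92 on day 1, 6.21 and 6.25 on day 2, 7.85 and 7.16 on day 3, 8.87 and 7.66 on day 4, 10.26 and 8.44 on day 5, and 10.75 and 9.41 on day 7. The NGAL arrays of days 1 and 2 overlapped the controls, and each later NGAL mean was higher than the one before. Under ANX it read 8.71 and 8.94 on day 1, 10.08 and 10.93 on day 2, 11.17 and 11.41 on day 3, 10.99 and 11.29 on day 4, 10.90 and 12.20 on day 5, and 10.52 and 9.83 on day 7. The ANX arrays of day 1 were already above every control (share of all genes not counted). By day 7 the arrays of the 3 inducers overlapped (means of 10.18 for ANX, 10.08 for NGAL and 9.81 for LIF).

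Each member varied over the 21 groups. Limma's F-test of any difference between groups called 7 of 7, where 43.7% of all tested genes were called, with adjusted p from 3.67e-08 for Ptgs2 to 0.0288 for Ccl7. P-values here rest on the spread between the 2 replicates of a group, pooled for each gene over all 21 groups and moderated across genes. They do not rest on the spread of the compared groups alone. Since the comparisons share arrays, their results are not independent of each other.

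In culture without inducer, Ccl2 and Ptgs2 were higher and Cx3cl1 was lower on day 2 than in fresh tissue. The control medium held the factors named above and fresh tissue met none of them, so culture and medium cannot be told apart. After 1 day no member was called, where 6.06% of all genes were (3.8% higher and 2.26% lower). After 2 days 3 of 7 were called, 2 higher and 1 lower, where 22.2% of all genes were called (9.47% higher and 12.7% lower). Ptgs2 rose by 2.48 on the log2 scale (SE 0.66, adjusted p = 0.00929). Because its fresh level was below the threshold, the difference is also given floored, with any group mean under the threshold set to it, and this was 0.37. Ccl2 rose by 1.83 (SE 0.55, adjusted p = 0.0199, floored 0.81). Cx3cl1 fell by 0.62 (SE 0.20, adjusted p = 0.0275). The spike-in ratio averaged 1.07 in fresh tissue and 2.00 in day 2 controls, and the 5S ribosomal signal log2 6.47 and 10.21. With the ratio as a covariate the Ccl2 call ended (1.57, adjusted p = 0.0742), and the part of the 5S signal was not tested. Of 12 endothelial markers 7 were lower and 0 higher in day 2 controls than in fresh tissue, and their part in the lower Cx3cl1 was not tested. With 2 arrays against 2 these calls were weak. Those of Ccl2 (1.68 to 1.98) and Cx3cl1 (-0.75 to -0.49) ended on leaving out any 1 of the 4 arrays, while Ptgs2 lost its call without control day 2 replicate 1 (1.73, adjusted p = 0.161) and without either fresh array (2.43 and 2.52). Day 2 against day 1 of control culture called no member, where 0.00878% of all genes were called.

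ANX raised Cxcl1, Ptgs2 and Ccl2 above the control and lowered Cxcl12 over days 1 and 2, so 4 of 7 members were called where 20.3% of all genes were (11.2% higher and 9.12% lower). Cxcl1 was higher by a log2 difference of 4.23 (SE 0.47, 95% interval 3.25 to 5.20, adjusted p = 2.77e-06, floored 3.56). Ptgs2 was higher by 3.95 (SE 0.46, 95% interval 3.00 to 4.91, adjusted p = 4.91e-06, floored 3.69). Ccl2 rose by 2.11 (SE 0.39, adjusted p = 0.000559, floored 1.75). All 4 ANX arrays were above all 4 controls for Cxcl1 and Ptgs2, while for Ccl2 the lower day 1 array (6.61) fell within the day 2 controls. Cxcl12 fell by 1.84 (SE 0.50, adjusted p = 0.0119), and all 4 ANX arrays were below all 4 controls. The share of all genes with arrays so apart was not counted. The differences of Cxcl2 (0.80, SE 0.36, adjusted p = 0.116), Ccl7 (0.65, SE 0.44, adjusted p = 0.299) and Cx3cl1 (0.20, SE 0.14, adjusted p = 0.335) did not pass. The median difference of the 7 was 0.80, against 0.03 over all genes tested.

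No array decided the 3 rises under ANX. With each of the 8 arrays left out in turn the difference ran from 3.96 to 4.49 for Cxcl1, from 3.58 to 4.32 for Ptgs2 and from 1.83 to 2.39 for Ccl2, and no call ended. Each of the 3 was also called on day 1 alone (3.32 for Cxcl1, 3.55 for Ptgs2 and 2.06 for Ccl2) and on day 2 alone (5.13, 4.35 and 2.16). The call of Cxcl12 ended without ANX day 1 replicate 1 (-1.61, adjusted p = 0.0640) and on single days (adjusted p = 0.113 and 0.131), and of its other probe sets 1 gave a fall by 1.68 (adjusted p = 0.0157) and 1 a difference of -1.20 (adjusted p = 0.151). All 4 calls held with the spike-in ratio as a covariate. The part of the 5S ribosomal signal, which was lower under ANX, was not tested.

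Under LIF Ptgs2 was called higher and Cxcl12 lower than in the control. These were 2 of 7 members where 24% of all genes were called (11.4% higher and 12.6% lower), a count near that share. Ptgs2 was higher by 1.31 (SE 0.46, adjusted p = 0.0412, floored 1.06), and Cxcl12 fell by 1.41 (SE 0.50, adjusted p = 0.0439). Both p-values lay close to 0.05. With the spike-in covariate Cxcl12 was no longer called (-1.34, adjusted p = 0.0602). Its other probe sets were not called either, at -1.31 (adjusted p = 0.0504) and -0.84 (adjusted p = 0.317). The Cxcl12 call ended on leaving out any 1 of the 8 arrays (-1.58 to -1.23), and the Ptgs2 call for 6 of the 8, reaching 0.94 (adjusted p = 0.204) without control day 2 replicate 2. Cxcl1 (0.39) and Ccl2 (0.14) were not called under LIF. No member was called under NGAL on days 1 and 2, and of all 11388 genes limma called 0 at an adjusted p of 0.05, while 799 had an unadjusted p under 0.05. Under NGAL Ptgs2 differed from the control by 0.48, Cxcl1 by 0.23, Ccl2 by -0.35 and Cxcl12 by -0.32. The 3 comparisons share the same 4 control arrays.

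**Figure D2:**
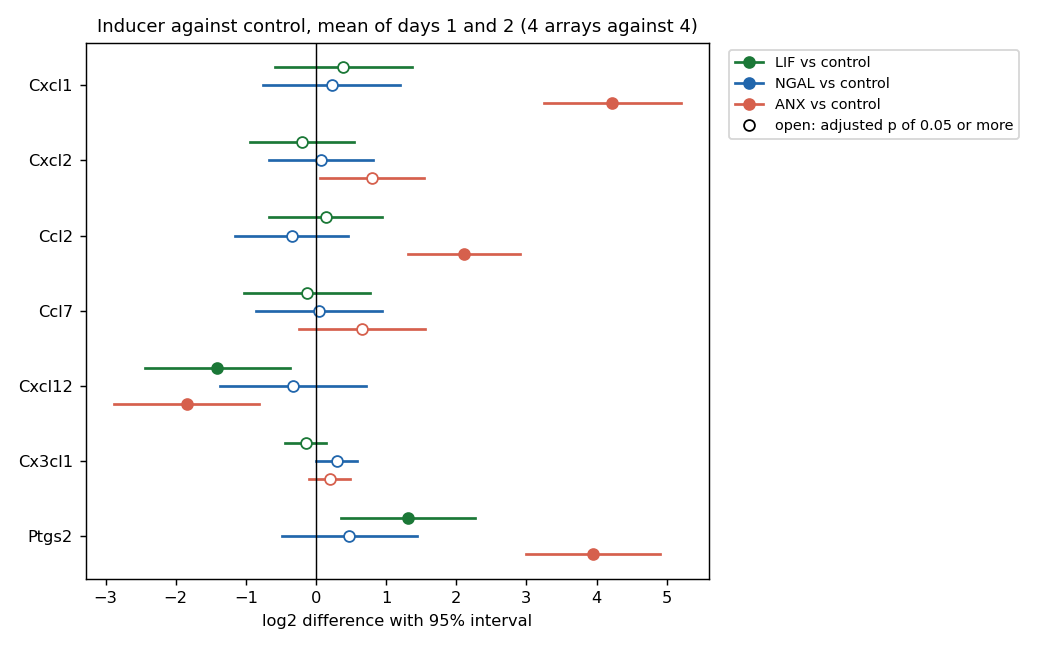
Log2 difference of each member between inducer and control, as the mean of days 1 and 2 (4 arrays against 4), with the 95% interval of the limma fit (lines). Filled points passed an adjusted p of 0.05 and open points did not. ANX points for Cxcl1 (4.23) and Ptgs2 (3.95) lie far to the right, and those of LIF (-1.41) and ANX (-1.84) for Cxcl12 to the left.

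Summed marker levels of some cell types also differed between these groups, and cell numbers were not measured. Renal stroma markers, which include the matrix-producing genes of the mesenchyme, summed to between 31659.3 and 36439 in the 4 control arrays, 13457.5 and 20740.6 under LIF, and 17602.7 and 23693.6 under ANX on days 1 and 2. Of the 13 tested, 9 were lower under LIF and 7 under ANX, and 0 were higher, where 12.6% and 9.12% of all genes were lower. The part of the stroma markers in the lower Cxcl12 was not tested. Macrophage and leukocyte markers summed to 1393 to 1723.1 in controls and 1577.6 to 2021.9 under ANX, with 1 of 14 tested higher and 4 lower, while 1 neutrophil marker was above the threshold in 1 of these arrays, ANX day 2 replicate 1. Endothelial markers summed to 2028.3 to 3813.7 in controls, 1318.4 to 2022.3 under LIF and 1678.7 to 2667.2 under ANX. Of the 12, 7 were lower and 0 higher under LIF, and 5 were lower and 2 higher under ANX, and their part was not tested.

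Against fresh tissue, Ptgs2 was higher on the first day under each inducer, and Cxcl1 and Ccl2 were higher under ANX. Against day 1 controls Ptgs2 was called under ANX but not under LIF or NGAL. Those controls themselves read 1.60 higher in Ptgs2 than fresh tissue, which was not called. ANX day 1 had Cxcl1 higher by 3.52 (SE 0.67, adjusted p = 0.000883, floored 2.64), Ccl2 by 2.35 (adjusted p = 0.00562, floored 1.34) and Ptgs2 by 5.15 (adjusted p = 8.35e-06, floored 3.04), so 3 of 7 members were called, all higher, where 11% of all genes were called (6.6% higher and 4.44% lower). LIF and NGAL had Ptgs2 higher by 2.82 (adjusted p = 0.00566, floored 0.71) and 2.48 (adjusted p = 0.0250, floored 0.37). LIF also had Cx3cl1 lower by 0.95 (adjusted p = 0.00243). In all, 2 of 7 members were called under LIF, where 10.5% of all genes were (5.94% higher and 4.52% lower), and 1 of 7 under NGAL, where 5.44% were (3.34% higher and 2.11% lower). The 3 comparisons share the 2 fresh arrays. Under NGAL the Ptgs2 call ended on leaving out any 1 of the 4 arrays (2.24 to 2.71), and under LIF those of Ptgs2 and Cx3cl1 ended without fresh replicate 1 or LIF day 1 replicate 2. That of Ccl2 under ANX ended without ANX day 1 replicate 2 (1.84, adjusted p = 0.120) and without fresh replicate 2.

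Over the course of NGAL culture 5 of 7 members rose from day 1 to day 7, where 15.5% of all genes were called (6.92% higher and 8.6% lower). Ccl2 rose by 4.24 (SE 0.55, adjusted p = 2.63e-05, floored 3.49) and Ptgs2 by 3.93 (15.2-fold, SE 0.66, adjusted p = 0.000346). Cxcl1 rose by 2.74 (adjusted p = 0.00740, floored 2.04), Ccl7 by 1.92 (adjusted p = 0.0359, floored 1.47) and Cx3cl1 by 0.99 (adjusted p = 0.00184). NGAL day 7 replicate 1, which stood apart, decided part of this. Without it the difference was 0.90 for Cxcl1 (adjusted p = 0.352) and 0.40 for Ccl7 (adjusted p = 0.721), while the calls of Ccl2 (lowest 3.21), Ptgs2 (lowest 3.26) and Cx3cl1 (lowest 0.86) held whichever of the 4 arrays was left out. Without replicate 2 in its place Cxcl1 differed by 4.58 and Ccl7 by 3.43. The call of Cxcl1 also ended without NGAL day 1 replicate 2 (2.62), and that of Ccl7 without either day 1 array (2.05 and 1.79). In replicate 1, macrophage and leukocyte and stromal markers were higher as given above, and their part was not tested.

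Under LIF, Ptgs2 rose from day 1 to day 7 by 3.31 (9.95-fold, adjusted p = 0.00271), Ccl2 by 2.67 (adjusted p = 0.00354) and Cx3cl1 by 0.74 (adjusted p = 0.0186). These were 3 of 7 members, where 10.9% of all genes were called (4.39% higher and 6.51% lower). Ptgs2 held with each array left out, whereas the call of Ccl2 ended without LIF day 1 replicate 1 (2.22) and that of Cx3cl1 without LIF day 1 replicate 2 (0.57) or LIF day 7 replicate 2 (0.40). Under ANX 1 of 7, Ccl2, differed between day 7 and day 1, by 1.84 (adjusted p = 0.0265), where 13.8% of all genes were called (6.4% higher and 7.43% lower). It ended without ANX day 1 replicate 1 (1.33), with ANX day 7 replicate 2 left out (1.36) and with the spike-in covariate (1.62, adjusted p = 0.0629). Cxcl1 differed between these days by -0.13 (SE 0.67, adjusted p = 0.924).

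Under ANX the highest group means of Cxcl1, Cxcl2, Ccl2 and Ptgs2 fell on day 3 or day 5, so the middle of the course was compared with its ends. These comparisons were chosen after the values were seen, so their adjusted p-values are no test of that shape. From day 1 to the mean of days 3 to 5, Ccl2 rose by 2.91 (adjusted p = 0.000323), Cxcl2 by 2.15 (adjusted p = 0.00312, floored 1.90) and Ptgs2 by 2.50 (adjusted p = 0.00682), 3 of 7 where 3.88% of all genes were called. From days 3 to 5 to day 7 Cxcl2 fell by 1.77 (adjusted p = 0.0317), 1 of 7 where 1.21% of all genes were called, and Cxcl1 differed by -1.81 (adjusted p = 0.110). The Ptgs2 call ended without ANX day 1 replicate 1 (2.38) or replicate 2 (2.61), the first Cxcl2 call without ANX day 1 replicate 1 (1.99), and the second without ANX day 4 replicate 1 (-1.64) or either day 7 array (-1.82 and -1.73) and with the spike-in covariate (-1.81, adjusted p = 0.0521). Ccl7 passed at 1.94 without ANX day 3 replicate 1, and Cxcl12 at -2.25 without ANX day 3 replicate 2.

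Under NGAL the same comparison had Ccl2 higher by 2.47 (adjusted p = 0.00154, floored 1.72), Ptgs2 by 2.22 (adjusted p = 0.0124) and Cxcl1 by 1.89 (adjusted p = 0.0368, floored 1.20) on days 3 to 5 than on day 1, 3 of 7 where 6.54% of all genes were called. From there to day 7 Ccl2 was higher by another 1.77 (adjusted p = 0.0396) and Cx3cl1 by 0.86 (adjusted p = 0.00645), 2 of 7 where 1.69% were called. Without NGAL day 7 replicate 1 these last differences were 0.74 and 0.73 and not called, and without replicate 2 Cxcl1 (2.68) and Ccl7 (2.75) passed too. The later Ccl2 call also ended without replicate 2 of NGAL day 3, 4 or 5 (1.54 to 1.67) and with the spike-in covariate (1.63, adjusted p = 0.0783), and Ptgs2 passed at 2.01 without NGAL day 5 replicate 1. Of the rises to days 3 to 5, the call of Ptgs2 ended without either day 1 array (2.45 and 1.99) and that of Ccl2 without day 1 replicate 2 (2.38). That of Cxcl1 ended without either day 1 array (2.01 and 1.78) or without replicate 1 of day 3, 4 or 5 (1.78, 1.74 and 1.68). Without NGAL day 3 replicate 1, which stood apart, the rises of Ccl2 (2.31) and Ptgs2 (2.11) were still called, as were the later ones of Ccl2 (1.93) and Cx3cl1 (0.86). Under LIF Ptgs2 was higher by 2.69 (adjusted p = 0.00422) on days 3 to 5, 1 of 7 where 4.68% were called, and this ended without either LIF day 1 array (2.46 and 2.92). No member was called between days 3 to 5 and day 7 of LIF, where 0.501% of all genes were, although Cx3cl1 passed at 0.87 without LIF day 7 replicate 1.

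Whether the courses themselves differed was tested directly, and no member passed. The F-test of inducer by day called 0 of 7 (0.0351% of all genes were called), with the smallest adjusted p of 0.389 for Ccl2 and Cxcl2. The day 7 less day 1 difference of Cxcl1 was lower under ANX than under NGAL by 2.87 (SE 0.94, adjusted p = 0.165). Without NGAL day 7 replicate 2 this difference became -4.71 and passed, as did those of Ccl2 (-3.43) and Ccl7 (-2.74) and, for LIF against NGAL, that of Cxcl1 (-3.62), and the inducer-by-day F-test then called Cxcl1 and Ccl2. It called Cxcl2 without ANX day 5 replicate 1.

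Set against LIF over the 6 days, ANX held 5 of 7 members higher and none lower, where 5.01% of all genes were called (3.37% higher and 1.63% lower). Cxcl1 was higher by 3.88 (SE 0.27, adjusted p = 1.58e-09, floored 3.66), the smallest adjusted p of all genes in this comparison. Ccl2 was 4.57-fold higher (2.19, SE 0.22, adjusted p = 1.53e-06), Ptgs2 4.02-fold (2.01, SE 0.27, adjusted p = 5.9e-05), and the log2 difference was 2.00 for Cxcl2 (SE 0.21, adjusted p = 1.73e-06, floored 1.12) and 1.18 for Ccl7 (SE 0.25, adjusted p = 0.00665, floored 0.81). All 6 LIF group means of Cxcl2 lay below the threshold. None of these 5 calls ended with any of the 24 arrays left out. Both ANX arrays were above both LIF arrays on 6 of 6 days for Cxcl1 and Cxcl2, a pattern that 0.202% of all genes had. For Cxcl2 the day 1 arrays of ANX (5.37 and 5.69) and LIF (5.15 and 5.15) were all below the threshold, so that day orders readings near background. Cxcl2 entered the tested genes through its ANX groups alone. For Ccl2, Ccl7 and Ptgs2 both ANX arrays were above both LIF arrays on 5 of 6 days, and the share of all genes apart on 5 of 6 days was not counted. Cxcl12 differed between ANX and LIF by -0.54 (SE 0.29, 95% interval -1.13 to 0.06, adjusted p = 0.315), and Cx3cl1 by 0.26 (adjusted p = 0.0673). The Cx3cl1 difference passed with any of 5 arrays left out (0.27 to 0.31) and with the spike-in covariate (0.28, adjusted p = 0.0413).

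Against NGAL, ANX had Cxcl1, Ptgs2, Ccl2 and Cxcl2 higher and Cxcl12 and Cx3cl1 lower, 6 of 7 members where 37.5% of all genes were called (22.2% higher and 15.3% lower). Cxcl1 was higher by 2.97 (SE 0.27, adjusted p = 1.36e-07, floored 2.82) and Ptgs2 6.27-fold higher (2.65, SE 0.27, adjusted p = 3.51e-07). Ccl2 was higher by 2.03 (SE 0.22, adjusted p = 9.39e-07, floored 1.90) and Cxcl2 by 1.53 (SE 0.21, adjusted p = 9.98e-06, floored 1.12). Cxcl12 fell below NGAL by 1.98 (SE 0.29, adjusted p = 2.19e-05), with both ANX arrays lower on 5 of 6 days (share of all genes not counted). Cx3cl1 differed by -0.24 (SE 0.08, adjusted p = 0.0213), a call that ended without ANX day 7 replicate 1 (-0.21) or NGAL day 2 replicate 2 (-0.20). Ccl7 differed by 0.53 (adjusted p = 0.0994) and passed without NGAL day 7 replicate 1 (0.78) or ANX day 3 replicate 1 (0.70). Without NGAL day 3 replicate 1 the difference was 3.03 for Cxcl1 and -1.94 for Cxcl12, and without NGAL day 7 replicate 1 it was 3.28 and -2.04.

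Against NGAL, LIF had Cxcl1, Ccl7, Cxcl12 and Cx3cl1 lower and no member higher, 4 of 7 where 41.7% of all genes were called (21.5% higher and 20.3% lower), a background so high that the count itself says little. Cx3cl1 was lower by 0.50 (SE 0.08, adjusted p = 3.69e-05) and on 6 of 6 days with both arrays apart, a pattern in 3.61% of all genes. Cxcl12 was 2.73-fold lower (difference -1.45, SE 0.29, adjusted p = 0.000325), on 5 of 6 days with both arrays apart (share of all genes not counted). Cxcl1 fell below NGAL by 0.91 (SE 0.27, adjusted p = 0.00956, floored -0.84). Ccl7 was lower by 0.65 (adjusted p = 0.0394, floored -0.35), and this call ended for 15 of the 24 arrays left out (-0.40 without NGAL day 7 replicate 1 and -0.60 without NGAL day 3 replicate 1). Without the first of these arrays Cxcl1 was lower by 0.60, and without the second by 0.85, and it was still called. On days 1 and 2 alone no member was called between LIF and NGAL (5.17% of all genes were), and on days 3 to 7 the same 4 genes were called (39% of all genes). Ptgs2 differed by 0.64 (adjusted p = 0.0575, passing with any of 7 arrays left out), Cxcl2 by -0.46 (adjusted p = 0.0775, passing at -0.57 without NGAL day 3 replicate 2 and at -0.53 without NGAL day 7 replicate 2), and Ccl2 differed by -0.16 (adjusted p = 0.588). The other 2 probe sets of Cxcl12 gave -1.75 and -1.55 for LIF against NGAL and -2.14 and -1.62 for ANX against NGAL. Against NGAL, 12 of 13 stroma markers were lower under LIF and 12 were lower and 1 higher under ANX, while between ANX and LIF 1 was lower and 1 higher, and their part in the Cxcl12 difference was not tested. Each inducer's 12 arrays serve in 2 of the 3 comparisons.

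**Figure D3:**
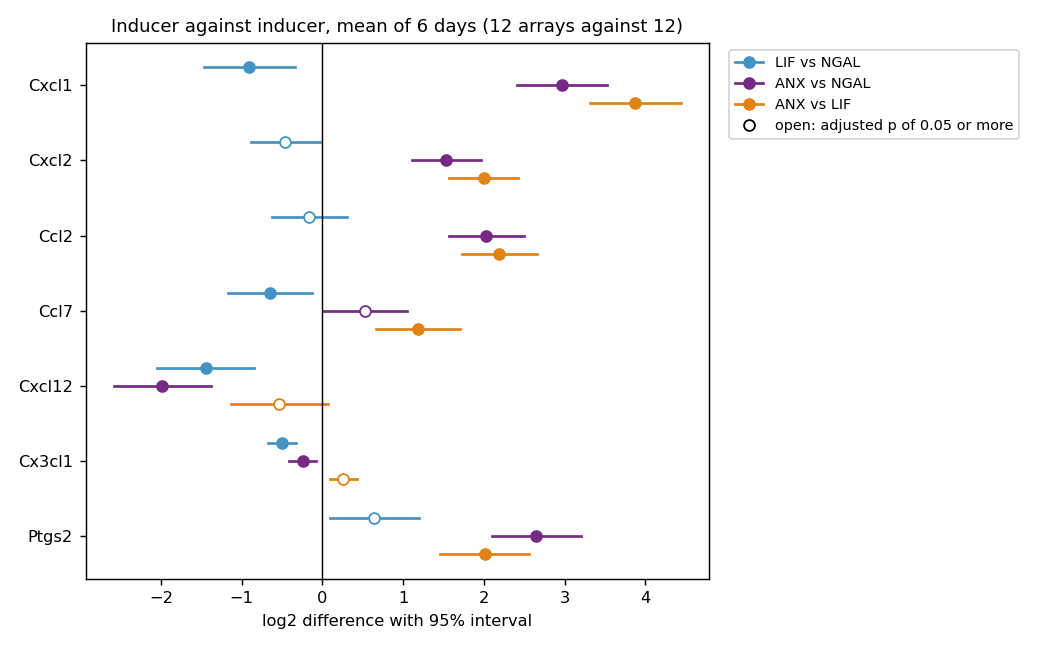
Log2 difference of each member between pairs of inducers as the mean of 6 days (12 arrays against 12), with 95% intervals of the limma fit. Filled points passed an adjusted p of 0.05. Cxcl1 lies at 3.88 for ANX against LIF and at 2.97 for ANX against NGAL, while Cxcl12 lies at -1.98 for ANX against NGAL and its interval for ANX against LIF (-1.13 to 0.06) includes 0.

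Of 29 further chemokine ligand genes listed, 25 were on the arrays and 15 were tested. Under ANX against control 3 of the 15 rose and 1 fell, where 11.2% of all genes rose and 9.12% fell, with a median difference of 0.11 against 0.03 over all genes. Cxcl16, a transmembrane ligand, rose by 1.27 (SE 0.30, adjusted p = 0.00453), the interferon-induced T-cell attractant Cxcl10 by 1.58 (SE 0.41, adjusted p = 0.00869) and Cxcl14 by 0.74 (SE 0.21, adjusted p = 0.0166, floored 0.56), while Pf4, the platelet factor 4 gene, fell by 1.30 (SE 0.37, adjusted p = 0.0144). Cxcl10 had its highest mean on ANX day 1, 9.91, and read 6.37 on ANX day 7, a fall by 3.54 (adjusted p = 0.000318). Cxcl14 had its highest mean, 8.54, on ANX day 3. Cxcl3, the closest relative of Cxcl1 and Cxcl2 on the list, moved little, from 7.32 in fresh tissue to 7.89 on ANX day 3, and was higher under ANX than LIF by 0.26 (SE 0.05, adjusted p = 0.00227).

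Of the same list, 3 ligands rose in culture without inducer. By control day 2, Cxcl13, a B-cell attractant, had risen by 4.48 (adjusted p = 0.000193, floored 3.18), Cxcl16 by 2.93 (adjusted p = 5.06e-05) and Cxcl10 by 2.57 (adjusted p = 0.00321, floored 2.22), 3 of 15 tested with 0 lower, where 9.47% of all genes were higher and 12.7% lower. From day 1 to day 7 of NGAL 4 rose and 1 fell, where 6.92% of all genes rose and 8.6% fell. Among them Cxcl13 rose by 4.00 (adjusted p = 0.000899) and Ccl11, the eosinophil attractant eotaxin, by 3.25 (adjusted p = 0.000190, floored 1.31). These rises include NGAL day 7 replicate 1, the array that stood apart, and are not given without it. Against NGAL, LIF had 4 ligands higher and 5 lower, where 21.5% of all genes were higher and 20.3% lower, with Cxcl16 (-1.23), Cxcl13 (-1.50) and Pf4 (-1.12) among the lower.

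The receptors Cxcr2, Cx3cr1 and Ccr2 were not measured above background. Group means of Cxcr2 were at most 5.75, of Cx3cr1 at most 5.36 and of Ccr2 at most 4.51, all below the threshold of 5.79. By contrast the Cxcl12 receptors were well above it. Cxcr4 had a mean of 8.53 in fresh tissue and its highest mean, 9.77, on LIF day 4, and Ackr3 went from 9.01 in fresh tissue to 10.40 in day 2 controls, a rise by 1.39 (SE 0.38, adjusted p = 0.0107). Of 6 receptors tested (17 of 23 listed were on the arrays), 1 changed under LIF against control, Ackr3, which fell by 0.97 (SE 0.27, adjusted p = 0.0101), where 24% of all genes were called, and 0 were called under ANX, where 20.3% were, or NGAL.

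The other genes of prostanoid synthesis and breakdown changed by less than Ptgs2 did under ANX. Of 16 listed, 14 were tested. Against control 1 rose under ANX, Ptges3, a cytosolic prostaglandin E synthase (0.28, SE 0.10, adjusted p = 0.0481), and none fell, where 11.2% of all genes rose and 9.12% fell. Under LIF 1 rose and 2 fell, where 11.4% and 12.6% of all genes did. Those lower were Pla2g4a, the phospholipase that releases arachidonic acid (-1.19, SE 0.27, adjusted p = 0.00264), and Ptgis, prostacyclin synthase (-0.58, SE 0.19, adjusted p = 0.0258). Ptgs1, the constitutive cyclooxygenase, had its highest mean, 8.97, on ANX day 5 and read 6.46 in fresh tissue. It was higher under ANX than under LIF by 0.95 (SE 0.20, adjusted p = 0.00703) and than under NGAL by 0.94 (adjusted p = 0.00108). Pla2g4a was higher under ANX than LIF by 1.18 (adjusted p = 5.51e-05). Ptgis was highest on NGAL day 7 (9.13, a rise by 2.10 from day 1, adjusted p = 1.84e-05), and was lower under ANX than NGAL by 0.99 and lower under LIF than NGAL by 1.01. These values include NGAL day 7 replicate 1, which stood apart, and are not given without it. Ptges, the inducible prostaglandin E synthase, stayed between 5.72 and 6.35 in all groups.

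Among the prostanoid receptors, 5 of 9 listed were tested. Ptger2, a prostaglandin E2 receptor that raises cyclic AMP, was higher than control under ANX by 0.94 (SE 0.24, adjusted p = 0.00726) and under LIF by 0.69 (SE 0.24, adjusted p = 0.0360), the 1 receptor of 5 called in each, where 20.3% and 24% of all genes were called. Ptger4, a receptor of the same kind, was 6.75 on ANX day 1, a rise by 1.45 from fresh tissue (adjusted p = 0.000789, floored 0.97), and fell by 1.06 to ANX day 7 (adjusted p = 0.0109).

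**Figure D4:**
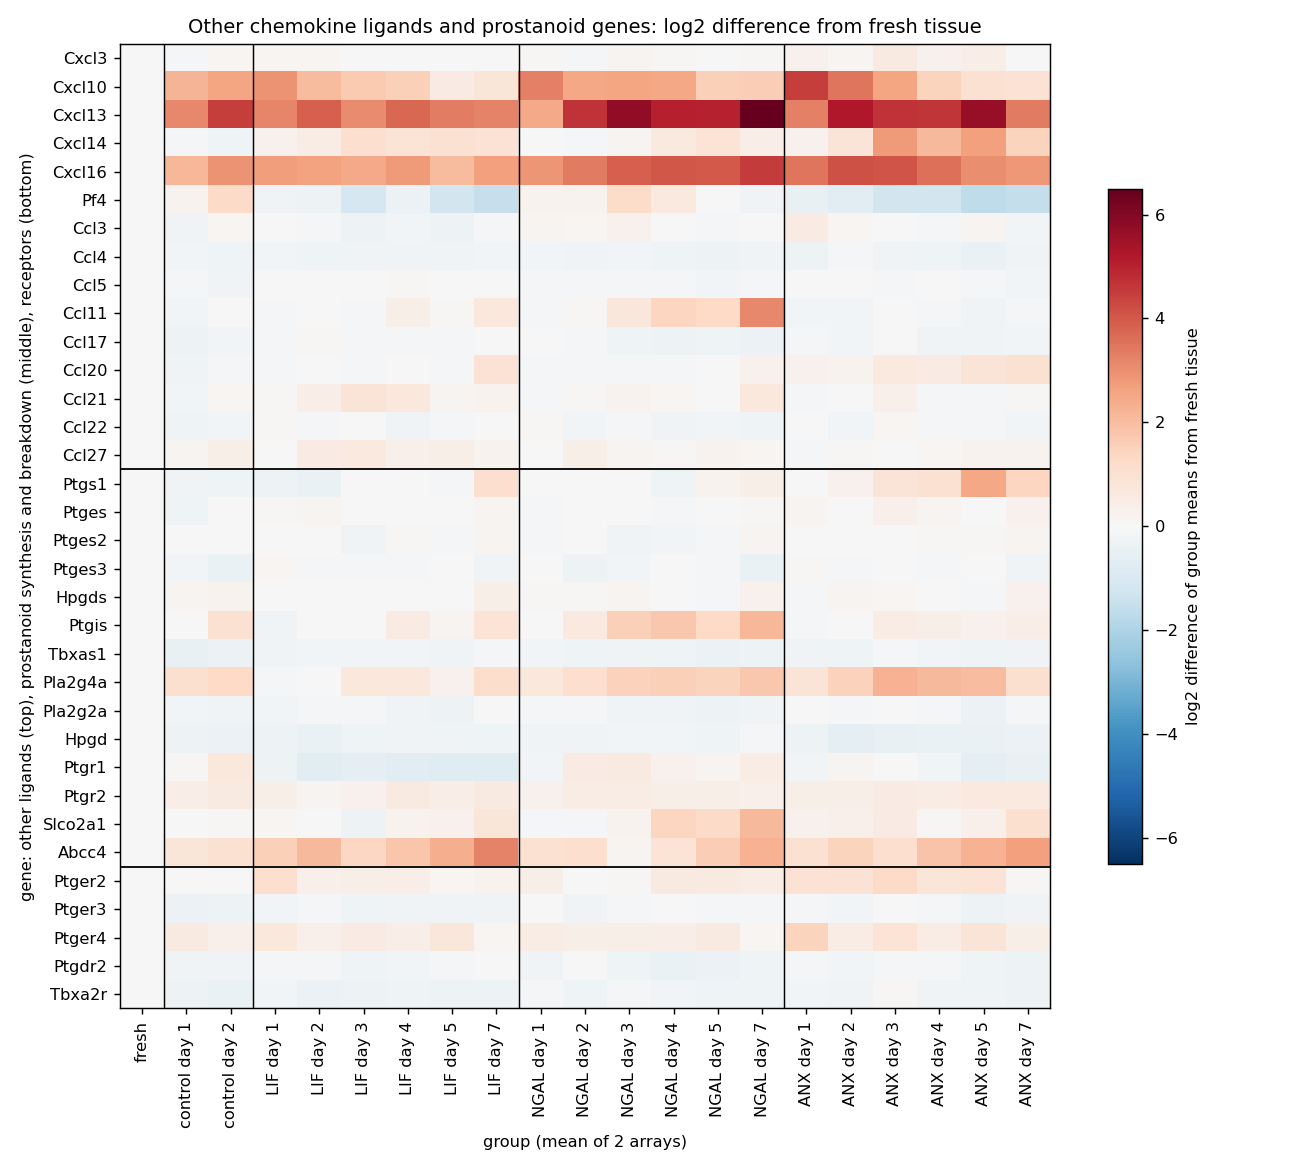
Difference of each group mean from fresh tissue (colour, log2 scale, red higher and blue lower) for the tested other chemokine ligands (top block), genes of prostanoid synthesis and breakdown (middle) and prostanoid receptors (bottom), by group of 2 arrays (columns). Cxcl13 and Cxcl16 are red in control as well as induced groups, Cxcl10 is reddest on ANX day 1 (9.91 against 5.43 in fresh tissue), and Ptgs1 on ANX day 5 (8.97 against 6.46).

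Genes known to respond to NF-kB were called under both ANX and LIF. Of 28 listed, 19 were tested, and against control 7 rose and 2 fell under ANX (median 0.25, all genes 0.03), where 11.2% of all genes rose and 9.12% fell. Under LIF 6 rose and 2 fell, where 11.4% and 12.6% of all genes did. Nfkb1, which encodes an NF-kB subunit, rose by 1.05 under ANX (SE 0.09, adjusted p = 2.87e-07) and by 0.87 under LIF (adjusted p = 1.98e-06), and the adhesion molecule gene Icam1 by 1.69 and 1.13. Bcl3, a nuclear partner of NF-kB, rose by 1.73 under ANX and by 2.57 under LIF. Between ANX and LIF directly 8 were higher under ANX and 0 lower, where 3.37% and 1.63% of all genes were, with Sod2, the mitochondrial superoxide dismutase, higher by 0.72 (adjusted p = 1.24e-05), Nfkbiz by 1.10 (adjusted p = 0.00223) and Nfkb1 by 0.22 (adjusted p = 0.0160).

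Of 14 genes that encode mRNA decay factors, MAPK phosphatases and glucocorticoid-induced feedback proteins, all 14 tested, 5 rose and 0 fell under ANX against control, where 11.2% of all genes rose and 9.12% fell. Under LIF 3 rose and 1 fell, where 11.4% and 12.6% of all genes did. Ier3, an early response gene, rose by 2.16 under ANX (adjusted p = 6.41e-07) and by 1.57 under LIF, and Dusp6, a phosphatase of ERK, by 1.16 and 1.06. Fkbp5, a glucocorticoid-induced gene, rose by 0.38 under ANX (adjusted p = 0.0108). Dusp1, the phosphatase that restrains p38 signalling, read 10.94 in fresh tissue and fell by 2.66 to control day 2 (adjusted p = 7.53e-05).

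Likeness of pattern was described by Pearson's correlation of log2 levels over the 42 arrays, which share groups and days, so no p is given. The genes most like Cxcl1 were Lcn2 (r = 0.878), which encodes NGAL itself, Ptgs2os, a transcript named for lying opposite Ptgs2 (0.870), and Ccl2 (0.852). Those most like Cxcl2 were Lcn2 (0.816), Slpi, a leukocyte protease inhibitor (0.805), and Cxcl1 (0.802). Ccl2 and Ptgs2 were each other's closest genes of all tested (r = 0.917). After Ptgs2, Ccl2 was most like Cd82 (0.856) and Ctsc (0.855), and after Ccl2, Ptgs2 was most like Ier5 (0.907) and Ctsc (0.897). Ccl7 was most like Pla1a (0.854), Lpl (0.824) and Plpp1 (0.807). Cxcl12 was most like the forkhead gene Foxd2 (0.902), Klhl4 (0.878) and Zfp703 (0.876). Its correlation with Ptgs2 was -0.806. Cx3cl1 had no close pattern, with Cpeb3 at 0.753 first, followed by C1qtnf7 (0.730) and Hspa1a (0.710), and its correlation with Ptgs2 was 0.073.

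**Figure D5:**
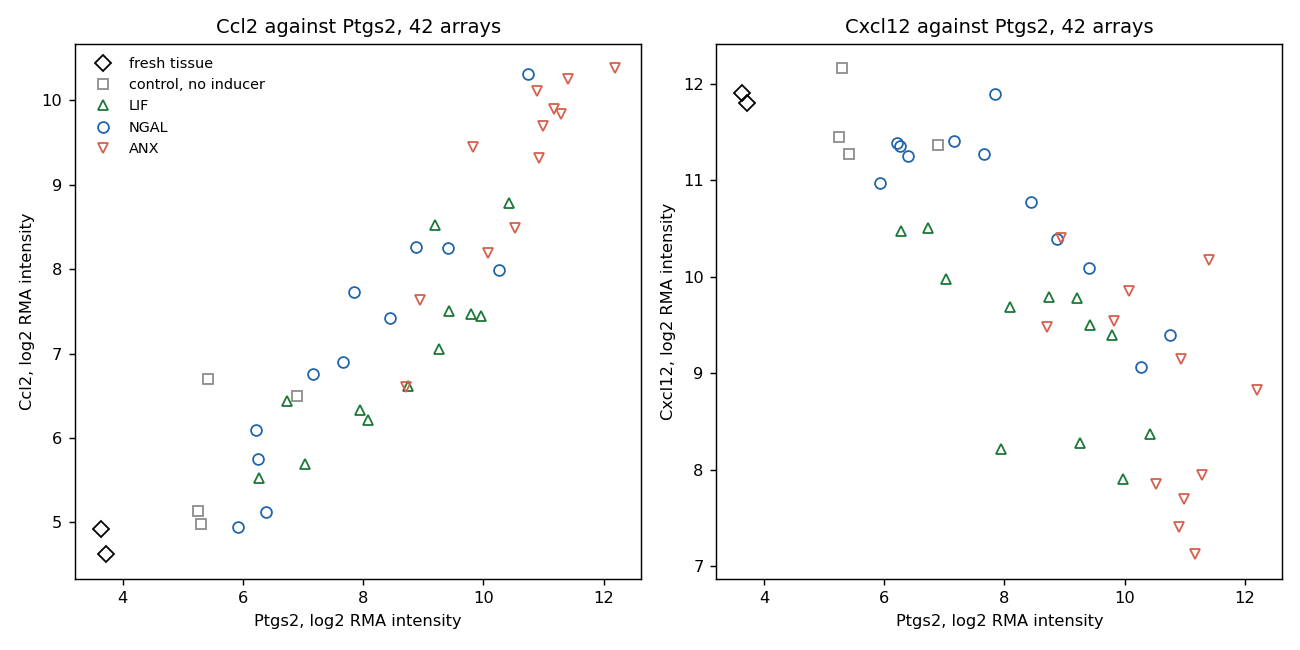
Levels of Ccl2 (left) and Cxcl12 (right) against Ptgs2 in the 42 arrays, as log2 RMA intensity, with a symbol for each treatment. Ccl2 rises with Ptgs2 across treatments (r = 0.917), and Cxcl12 is highest where Ptgs2 is lowest (r = -0.806).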

How the data were processed

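The deposited values are intensity, 1 value per probe set and array, made by the authors with robust multichip analysis (RMA) on Affymetrix Rat Genome 230 2.0 arrays, per the series design and the submitters' processing notes, which give no version. They ran from 7.6 to 17972, a linear scale, and log2 was taken. RMA's background step compresses dim signals, so differences of members near background may be understated. Of 31099 probe sets, 20832 named 1 gene, 436 several and 9831 none in the platform's table.

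Comparisons used R 4.3.3 and limma 3.58.1, fitting 21 group means to the 42 arrays at once (21 residual degrees of freedom), empirical Bayes variances with a trend, and Benjamini-Hochberg adjustment over 11388 genes. Calls are adjusted p under 0.05. The procedure was tested on simulated data. Of each gene list up to 4 called genes per comparison with the smallest adjusted p could be named, with the 3 genes most correlated with each member. Levels of list genes by group, the spread of Ptges and Cxcl3, and the genes of the day 3 to 5 comparisons were picked with their values in view. Members, lists and comparisons were chosen with earlier results of these data known. Alternatives were other filters, normalization, probe sets, weights, a spike-in covariate, a replicate block and each array left out.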

Additional observations from a re-analysis of the deposited data

How the results depend on the processing

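Each comparison was refitted under 18 other settings and with each of 42 arrays left out. Of 4678 values for single members, 4453 stayed the same, 142 lost the call, 59 gained it, 23 moved and 1 turned. The 1 that turned was Cxcl1 for LIF against NGAL, which was 0.16 on days 1 and 2 alone. Values that stayed the same include differences called in neither fit. Floored differences have no p, and they counted as the same where they shifted by less than the pooled SD. The cause was not tested unless the setting itself holds fewer arrays or genes.

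Counts of members called that moved by over 1.5 times were as follows, with the reported count first. In 14 other cases a count moved by 1 member, 2 of them under the replicate block. With array weights, ANX day 1 against fresh went from 3 to 5, LIF day 1 against fresh from 2 to 4, control day 1 against fresh from 0 to 1, LIF day 7 against day 1 from 3 to 1, days 3 to 5 against day 1 from 3 to 6 under ANX and 1 to 2 under LIF, and day 7 against days 3 to 5 to 0 under ANX and NGAL. With the spike-in covariate, ANX day 7 against day 1 and against days 3 to 5 gave 0, control day 1 against fresh 1, LIF against control 1 and NGAL day 7 against days 3 to 5 gave 1. With the compared arrays alone, ANX, LIF and NGAL day 1 against fresh gave 6, 4 and 2, control day 1 and day 2 against fresh 1 and 5, control day 2 against day 1 gave 1, day 7 against day 1 gave 0 under LIF and 1 under NGAL, day 7 against days 3 to 5 gave 0 under ANX and NGAL, and days 3 to 5 against day 1 gave 2 under LIF and 1 under NGAL. A 2-fold minimum left 1 for LIF day 1 against fresh, LIF against NGAL and NGAL day 7 against days 3 to 5. LIF against control gave 0 with all probe sets and on either day alone, and 1 with the mean of probe sets or no filter. All probe sets left 1 for NGAL day 7 against days 3 to 5, and renewed quantile normalization gave 1 for control day 1 against fresh. On days 1 and 2 alone, ANX against LIF and against NGAL gave 3 and LIF against NGAL 0.

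Deviations of replicate 1 arrays correlated between groups at -0.646 to 0.742 (median 0.065, 88 of 210 pairs over 0.1). With so wide a range this check cannot tell whether equal numbers pair samples in some groups, and the comparisons treated replicates as unpaired. A replicate block gave 2 for LIF days 3 to 5 against day 1, 4 for ANX day 1 against fresh and 4 for ANX days 3 to 5 against day 1, and left the other counts as they were.

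With each array left out in turn, the count ranged from 3 to 4 for ANX, 0 to 1 for LIF and 0 to 0 for NGAL against control, 5 to 6 for ANX against LIF, 5 to 7 for ANX against NGAL and 3 to 5 for LIF against NGAL. It ranged from 0 to 1 for control day 2 against fresh, 2 to 3, 0 to 2 and 0 to 0 for day 1 of ANX, LIF and NGAL against fresh, and 0 to 1, 2 to 3 and 3 to 5 for day 7 against day 1 of ANX, LIF and NGAL. For days 3 to 5 against day 1 it ranged from 1 to 4, 0 to 1 and 0 to 3, and for day 7 against days 3 to 5 from 0 to 1, 0 to 1 and 0 to 4, in the same order. The F-tests gave 6 to 7 for any group and 0 to 2 for inducer by day, and day 7 less day 1 gave 0 to 3 for ANX against NGAL and 0 to 1 for LIF against NGAL.

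Signal over background limits Cxcl1, Cxcl2, Ccl2, Ccl7 and Ptgs2, whose fresh levels were below log2 5.79.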
